A study of Mus musculus with 6 samples.

Results

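The immunoglobulin heavy and light chain probes were followed through 6 mouse tumors and the reference RNA that shared each array with them. They were all non-control probes whose printed gene name begins with Igh, Igk or Igl, together with Igj, the older name of the joining chain gene Jchain. Ighmbp2 and the cell adhesion genes named Iglon were left out. This gave 57 probes with 29 names among the 41174 probes of the array. By name, 5 probes belonged to heavy chain constant genes, 25 to heavy chain variable genes, 12 to the kappa light chain, 8 to the lambda light chain, 2 to the joining chain and 2 to the surrogate light chain gene Igll1, and 3 were named Igh alone. The group was selected on the rise from day 10 to day 15 seen earlier in these same arrays, so every value between the days is given here as a description.

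Hepa1-6, a mouse hepatoma line, was injected under the skin of female C57Bl/6 mice at 10000000 cells per mouse. Tumors 302, 307 and 312 were collected at day 10 and tumors 303, 313 and 318 at day 15, without any further treatment named in the labels. Each tumor RNA was labelled with Cy5 and shared its array with Cy3-labelled RNA. The labels give that reference as total RNA from blood of an untreated C57Bl/6 female. No tumor was run with the dyes exchanged, the labels name no mouse for a tumor, and p-values therefore measure the spread between these tumor samples, which may be technical. All day 10 arrays lay on 1 slide and all day 15 arrays on another, so slide and day cannot be told apart.

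An antibody is built from paired heavy and light chains. Each B cell joins variable, diversity and joining segments to make its heavy chain and variable and joining segments to make a kappa or a lambda light chain, and the constant gene sets the class of the antibody. Plasma cells, the secreting stage of this lineage, carry very large amounts of these transcripts, and the joining chain, encoded by Jchain, links IgM and IgA into polymers. Because variable segments differ from clone to clone, a probe for a single segment reads only the cells that chose that segment or a near copy of it, and cross-hybridisation between members of a variable family cannot be told apart from signal of the named segment.

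Probe sequences are not part of the scanner output used here, and the RefSeq promoter table holds an entry for Jchain and Igll1 only among the named genes. The Jchain promoter is shown because both Jchain probes stood far above the reference and had no overlap between the days in the ratio or in Cy5. It covers chr5:88527848-88528147 on the minus strand of GRCm38.p6, from upstream of the transcription start into the first bases of the transcript. Capitals mark the E-box letters CANCTG, searched on both strands.

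Jchain promoter: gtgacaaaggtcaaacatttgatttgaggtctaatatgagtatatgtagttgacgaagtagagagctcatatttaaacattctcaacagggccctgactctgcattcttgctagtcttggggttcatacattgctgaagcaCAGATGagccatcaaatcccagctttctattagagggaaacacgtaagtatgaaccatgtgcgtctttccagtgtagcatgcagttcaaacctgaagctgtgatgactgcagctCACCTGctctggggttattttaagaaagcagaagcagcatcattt

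The window holds 2 such E-boxes, and 51.4% of 32851 promoters of the same length hold at least 1. The octamer ATGCAAAT, known from immunoglobulin promoters, has 0 matches on either strand there and occurs in 1.74% of all promoters. The letters GAGGAA, the core bound by the ETS factor PU.1, have 0 matches there and occur in 28.3%. These are matches of letters only.

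A signal counted as above background where the scanner software had marked it well above background. In the tumor dye, 21 of the 57 probes met this on all 6 arrays, 11 on 3 to 5 arrays, 14 on 1 or 2 arrays and 11 on none. In the reference dye only 4 probes met it on all 6 arrays, and 28 on none. Tumors 302, 307 and 312 of day 10 had 28, 25 and 30 of the 57 probes above background in Cy5, and tumors 303, 313 and 318 of day 15 had 41, 41 and 31. Over the whole array the share above background in Cy5 ranged from 51.5% to 57.5%, with no such split by day. All 11 probes that passed at a single day did so at day 15.

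Comparisons used the 32 probes above background in Cy5 on at least 3 arrays. Values are log2 ratios of Cy5 over Cy3, or log2 normalised intensities of a single dye, on which 1 unit is a change of 2-fold. Across these 32 probes the median ratio was 1.29, 1.33 and 1.67 in tumors 302, 307 and 312, and 3.03, 4.30 and 2.78 in tumors 303, 313 and 318. The lowest day 15 tumor thus stood above the highest day 10 tumor. Tumor 313 held the highest ratio for 28 of the 32 probes, tumor 303 for 3 and tumor 318 for 1.

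The immunoglobulin probes tested read higher in the tumors than in the reference. All 32 passed the filter in Cy5, the tumor dye, and 10 of them also in Cy3. The filter itself therefore favours a higher tumor signal. Of the 32 probes, 31 were called higher than the reference and 0 lower (limma, Benjamini-Hochberg adjusted p under 0.05 and a log2 ratio of at least 1), where 22.1% of all 24221 probes tested were called higher. The median log2 ratio was 2.29, against 0.10 over all probes tested. Ighv1-56 (A_52_P559566), a variable segment, was the remaining probe, with a ratio of 0.95 ± 0.73 (SD, n = 6) and an adjusted p of 0.0039 in limma, under the size required. In bulk tissue, more cells of a type and more RNA per cell cannot be told apart. After median centring without loess the split of all calls on the array went from 66.9% to 37.8% higher as the median of all probes moved from 0.10 to -0.41, and the processed signals of the scanner gave 49.3% higher with a median of -0.20.

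**Figure D1:**
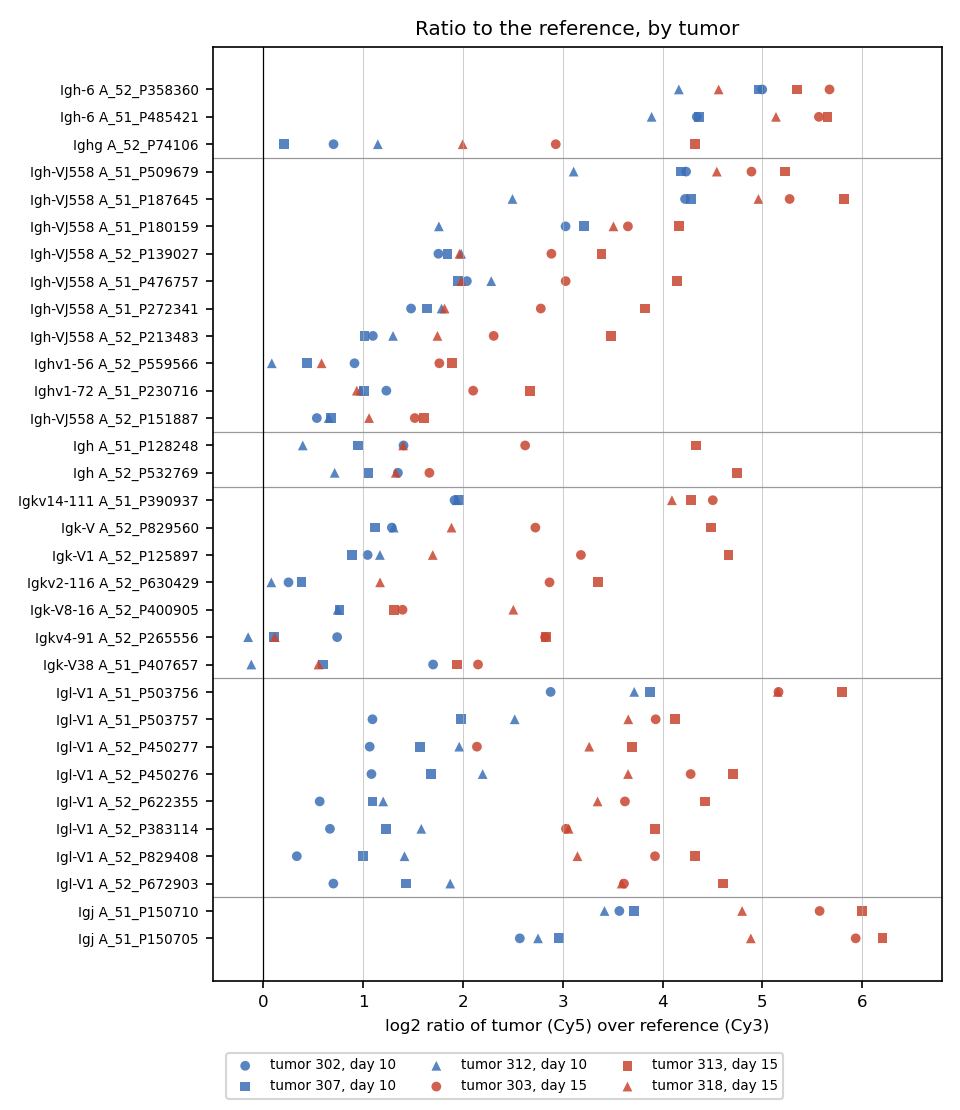
Log2 ratio of tumor (Cy5) over reference (Cy3) on the x axis for the 32 immunoglobulin probes tested, 1 row per probe and 1 point per tumor, day 10 in blue and day 15 in red. Rows are grouped from top to bottom as heavy constant, heavy variable, named Igh alone, kappa, lambda and joining chain. The lambda and joining chain rows separate the days completely, and the rightmost point is tumor 313 in 28 of the 32 rows.

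Among heavy chain constant genes, Igh-6, the older name of Ighm, encodes the mu chain of IgM. Its probe A_51_P485421, printed 10 times on each array, had log2 ratios of 4.34, 4.37 and 3.89 in tumors 302, 307 and 312, and 5.57, 5.65 and 5.14 in tumors 303, 313 and 318. All day 15 tumors were above all day 10 tumors. Its ratio over all tumors was 4.83 with a standard error of 0.11 and an adjusted p of 2.6e-07 in limma, the smallest among the immunoglobulin probes. In Cy5 it read 11.66, 11.96 and 11.84 at day 10 and 15.67, 15.04 and 13.72 at day 15, a difference of 2.99. Its repeated spots varied within an array by a coefficient of variation of 9.39% to 26.3%, which describes the array and not the spread between tumors.

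The second Igh-6 probe, A_52_P358360, did not follow the first. Its ratios were 5.0, 4.97 and 4.16 at day 10 and 5.67, 5.35 and 4.56 at day 15, and the days overlapped. In Cy5 it read 13.81, 14.10 and 13.56 at day 10 and 15.36, 14.20 and 12.74 at day 15, a difference of 0.28 that turned to -0.35 without tumor 303. The array files assign both probes to the same transcript, AK088666, so probes of this gene disagree on the size of the difference between the days while both stand far above the reference (4.95 for the second, standard error 0.18, adjusted p of 1.8e-06 in limma). The third Igh-6 probe, A_52_P311042, was not above background in either dye on any array.

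Ighg names the gamma chain of IgG. Its probe A_52_P74106 had ratios of 0.70, 0.21 and 1.15 in the day 10 tumors and 2.93, 4.33 and 2.0 in the day 15 tumors. The days did not overlap, and the day 15 tumors spread over more than 2 units. In Cy5 this probe was above background in 4 of 6 tumors, namely tumor 312 and the 3 day 15 tumors. The other Ighg probe, A_51_P117903, was above background only in tumors 303 and 313.

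Heavy chain variable probes were led by 3 probes named Igh-VJ558, after the largest variable family of the mouse, which the array assigns to the transcript BC004786. A_51_P509679 read in Cy5 13.25, 13.20 and 11.06 in tumors 302, 307 and 312, and 16.31, 18.61 and 15.10 in tumors 303, 313 and 318. Tumor 313 lay more than 2 units above every other tumor, and tumor 312 more than 2 units below the rest of day 10. A_51_P187645 ran from 9.93 to 11.92 at day 10 and from 13.39 to 17.25 at day 15, and A_51_P180159 from 9.54 to 11.54 and from 12.92 to 16.80. The day difference in Cy5 was 4.17, 3.94 and 3.85 for the 3 probes, which share their transcript and are not independent.

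The reference dye of these same probes moved with the tumor dye. In Cy3, A_51_P509679 read 9.01, 9.02 and 7.95 at day 10 and 11.42, 13.38 and 10.56 at day 15. Tumor 313 was highest and tumor 312 lowest in both dyes, although the labels name the same kind of reference RNA for every array. The difference between the days in Cy3 was 3.13, 2.26 and 2.74 for A_51_P509679, A_51_P187645 and A_51_P180159. The ratio therefore separated the days by less than the tumor dye did, by 1.04, 1.68 and 1.11.

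Other heavy variable probes had lower Cy5 levels. Igh-VJ558 A_52_P139027 had ratios of 1.75, 1.85 and 1.98 in the day 10 tumors and 2.89, 3.39 and 1.97 in the day 15 tumors, where tumor 318 lay within the day 10 range. Igh-VJ558 A_52_P213483, at 1.10, 1.01 and 1.30 against 2.31, 3.48 and 1.75, separated the days. Igh-VJ558 A_51_P272341, at 1.48, 1.64 and 1.79 against 2.78, 3.83 and 1.82, separated the days narrowly in the ratio. In Cy5 it read 8.04, 8.13 and 8.92 at day 10 and 9.52, 10.65 and 8.60 at day 15, and overlapped. Ighv1-72 (A_51_P230716) had 7.61, 7.45 and 7.98 in Cy5 at day 10 and 8.65, 9.20 and 7.56 at day 15, so tumor 318 again lay among the day 10 tumors. The second probe of Ighv1-72 was not above background on any array. Of the 10 heavy variable probes tested, 6 had no overlap between the days in the ratio and 5 in Cy5. Over all probes tested, 4.91% and 2.35% were higher at day 15 without overlap.

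The 2 tested probes named Igh alone, which the array assigns to the transcript M20831, were highest in tumor 313. The remaining probe of this name, A_51_P155336, was not above background in either dye on any array. A_52_P532769 had ratios of 1.35, 1.05 and 0.72 in the day 10 tumors and 1.66, 4.75 and 1.33 in the day 15 tumors. A_51_P128248 had 1.41, 0.95 and 0.40 at day 10 and 2.62, 4.33 and 1.40 at day 15. Tumor 318 lay within the day 10 range in both. With A_51_P128248, tumor 303 also lay above the day 10 tumors, and with the deposited value table it read 4.61 against 4.65 in tumor 313. In Cy5, tumor 313 read 11.65 and 11.61, and no other tumor exceeded 9.27.

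Ratios high in 1 or 2 tumors were also found among probes above background on 1 or 2 arrays, named here after their values were seen. Igk-V19-14 (A_52_P664842) was above background only in tumor 303, with a ratio of 2.88 there and -0.14 to 0.70 elsewhere. Igk-V1 (A_52_P957659) was above background only in tumor 313, with a ratio of 3.47 there and at most 0.50 elsewhere. The brighter Igk-V1 probe of the same transcript, A_52_P125897, was above background in Cy5 on all 6 arrays, at 3.18 in tumor 303 and 4.66 in tumor 313. Ighv1-31 (A_52_P320761) reached 2.95 in tumor 313 and at most 0.72 in the other tumors. Ighv4-2 (A_51_P435671) reached 2.83 in tumor 303 and 1.85 in tumor 313 and stayed at 0.68 or less elsewhere. The other Ighv4-2 probe, A_52_P1142105, read 1.39 in tumor 303 and -0.057 in tumor 313. Each of these probes is named after a variable segment, and the tumors in which a probe was high differed from probe to probe. They were picked among probes that passed on 1 or 2 arrays, so being high in few tumors follows from that choice. Of the 14 probes above background on 1 or 2 arrays, 5 passed in tumors 303 and 313 together, 2 in tumor 303 alone, 2 in tumor 313 alone and 1 in tumor 318 alone, and 4 passed in a tumor of each day.

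Among kappa probes, 3 carry the name Igkv14-111, and they do not describe the same transcript. The array files describe A_51_P390937 as the constant region of the kappa chain, shared by all kappa antibodies whatever their variable segment. They describe A_51_P264914 and A_51_P264922 as a transcript of the envelope region of a mouse mammary tumor virus, and neither was above background on any array. Values under the name Igkv14-111 here are those of A_51_P390937.

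In Cy5, Igkv14-111 A_51_P390937 read 8.28, 8.44 and 9.03 in tumors 302, 307 and 312, and 12.54, 11.76 and 11.33 in tumors 303, 313 and 318. The 3 day 15 tumors lay more than 2 units above the highest day 10 tumor. Unlike most members it was highest in tumor 303, and tumor 318 stood clear of the day 10 tumors. Its ratio was 1.92, 1.96 and 1.94 at day 10 and 4.50, 4.28 and 4.09 at day 15, which is 1.94 ± 0.024 and 4.29 ± 0.20 (SD, n = 3 each). It stood above the reference by 3.12 (standard error 0.077, adjusted p of 3.8e-07 in limma).

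The size of the Igkv14-111 difference depended on the processing. In Cy3, A_51_P390937 read 6.36, 6.47 and 7.09 at day 10, and it was above background in Cy3 on 3 of 6 arrays. The difference between the days was 2.35 in the ratio and 3.30 in Cy5. With the ratios of the deposited value table it was 0.51, from 3.85, 3.87 and 4.25 at day 10 and 4.47, 4.44 and 4.58 at day 15. Here too every day 15 tumor was above every day 10 tumor, with a smaller gap between them. After median centring without loess the difference was 1.49, and without background correction 2.53. The cause was not tested.

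The other kappa probes tested are named after variable segments. Igk-V1 (A_52_P125897) had ratios of 1.05, 0.89 and 1.17 in the day 10 tumors and 3.18, 4.66 and 1.70 in the day 15 tumors. Igk-V (A_52_P829560) had 1.29, 1.12 and 1.31 at day 10 and 2.73, 4.49 and 1.89 at day 15. Both separated the days, with tumor 313 highest and tumor 318 nearest to day 10. Igkv2-116 (A_52_P630429) had 0.25, 0.38 and 0.08 against 2.87, 3.35 and 1.17, while its Cy5 levels overlapped.

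Igk-V38 (A_51_P407657), whose current symbol is Igkv19-93, had ratios of 1.70, 0.59 and -0.12 in the day 10 tumors and 2.15, 1.94 and 0.55 in the day 15 tumors, and the days overlapped. Igk-V8-16 (A_52_P400905) lost its value in tumor 302 to an outlier mark. It read 0.76 and 0.75 in the remaining day 10 tumors and 1.40, 1.31 and 2.51 in those of day 15. It was the only tested probe whose ratio was highest in tumor 318. Of the 7 kappa probes tested, 4 had no overlap between the days in the ratio and 3 in Cy5, with Igk-V8-16 not counted. The shares of all probes tested were 4.91% and 2.35%.

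All 8 lambda probes are named Igl-V1, now Iglv1, a variable segment used by most lambda chains of the mouse. All 8 were tested, and all 8 had no overlap between the days in the ratio and in Cy5, against 4.91% and 2.35% of all probes tested. The brightest, A_51_P503756, read in Cy5 9.87, 10.84 and 11.78 in tumors 302, 307 and 312, and 13.14, 15.22 and 13.65 in tumors 303, 313 and 318. Its ratios were 2.88, 3.88 and 3.72 at day 10 and 5.16, 5.80 and 5.15 at day 15. Over all tumors it stood 4.43 above the reference (standard error 0.16, adjusted p of 1.8e-06 in limma).

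Its neighbour on the same transcript, A_51_P503757, had ratios of 1.09, 1.98 and 2.52 in the day 10 tumors and 3.93, 4.12 and 3.66 in the day 15 tumors. Igl-V1 A_52_P829408, the lambda probe with the largest difference, had 0.34, 1.0 and 1.42 at day 10 and 3.92, 4.32 and 3.15 at day 15, a difference of 2.88. Igl-V1 A_52_P622355 was close to it, at 0.57, 1.09 and 1.20 against 3.62, 4.42 and 3.35. Tumor 302 gave the lowest value with every lambda probe. Igl-V1 A_52_P450277 had the smallest difference, 1.50, from 1.07, 1.57 and 1.96 at day 10 to 2.14, 3.69 and 3.27 at day 15. With the deposited value table the days overlapped for this probe, at 2.34, 1.87 and 2.26 against 1.88, 3.51 and 3.20. The other lambda probes kept the days apart there. Tumor 303 was the day 15 tumor within the day 10 range of A_52_P450277. It was also the lambda probe most often above background in Cy3, on 5 of 6 arrays.

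The median lambda ratio was 0.88, 1.50 and 1.92 in tumors 302, 307 and 312, and 3.77, 4.37 and 3.47 in tumors 303, 313 and 318. Tumor 318, which lay near day 10 for many heavy and kappa variable probes, lay with the other day 15 tumors for lambda. The 8 probes share a name and partly a transcript, so they are repeated readings and not separate genes.

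Igj, now Jchain, was measured by 2 probes to the same transcript. A_51_P150705 had ratios of 2.57, 2.97 and 2.75 in tumors 302, 307 and 312, and 5.94, 6.20 and 4.88 in tumors 303, 313 and 318. This is a difference of 2.91 in the ratio. It was 1.36 with the deposited value table and 2.06 after median centring, and the probe was not above background in Cy3 on any day 10 array. A_51_P150710 had 3.57, 3.72 and 3.42 at day 10 and 5.57, 6.00 and 4.80 at day 15, a difference of 1.89.

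In Cy5 the Igj probes agreed more closely. A_51_P150705 read 8.85, 9.17 and 9.66 at day 10 and 13.40, 13.72 and 11.63 at day 15, and A_51_P150710 read 10.29, 10.63 and 10.85 against 14.78, 15.56 and 13.12. The differences were 3.69 and 3.90. In Cy3 they were 0.78 and 2.01, the second from a probe above background in the reference in the 3 day 15 arrays only. Over all tumors the probes stood 4.22 and 4.51 above the reference (standard errors 0.17 and 0.15, adjusted p of 3.4e-06 and 1.4e-06 in limma).

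The surrogate light chain gene Igll1, which pairs with the heavy chain in early B cell precursors, was not above background in either dye on any array with either of its probes. Vpreb1, its partner, is no member, and its ratio lay between 0.48 and 1.81 with a signal above background in both dyes on all arrays.

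**Figure D2:**
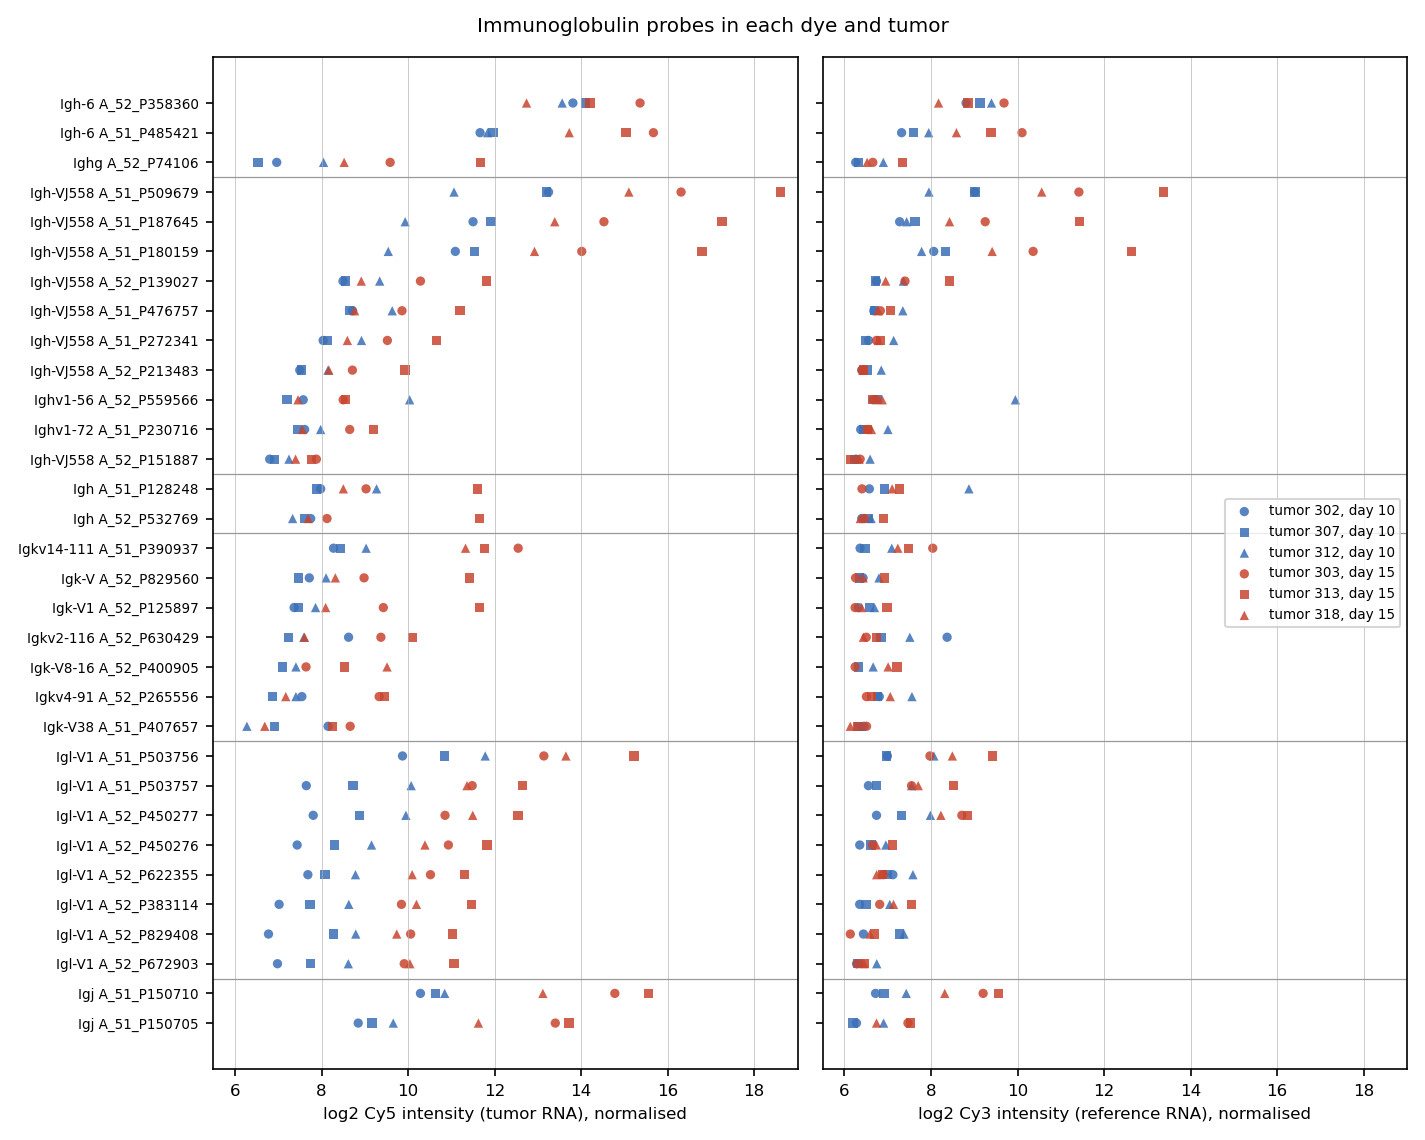
Log2 normalised intensity of the tumor dye (Cy5, left) and the reference dye (Cy3, right) on the x axes for the same 32 probes in the same row groups, 1 point per tumor, day 10 in blue and day 15 in red. Most Cy3 points lie between 6 and 8, while the upper Igh-VJ558 rows, Igh-6 A_51_P485421, Igj A_51_P150710 and the upper Igl-V1 rows show day 15 points displaced to the right in both dyes.

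Between the days, all 32 probes tested had a higher mean ratio at day 15, by 0.48 to 2.91 with a median of 1.68, where the median over all 23067 probes tested was 0.016. In 22 of the 32, every day 15 tumor was above every day 10 tumor, a pattern found in 4.91% of all probes tested. It held for 16 of the 21 above background in Cy5 on all 6 arrays. Of the 25 members that were not tested, 20 had a higher and 5 a lower mean ratio at day 15, by -0.16 to 1.54. In Cy5, 31 of 32 had a higher mean at day 15 with a median difference of 2.24, and 20 had no overlap, against 2.35% of all probes. In Cy3, 10 members were above background on at least 3 arrays. Of these, Igj A_51_P150710, Igkv14-111 and Igl-V1 A_51_P503757 passed through the day 15 arrays alone, so the filter itself favours a higher day 15. The mean was higher at day 15 in 9 of the 10, with a median difference of 1.51 and 7 with no overlap, against 3.89% of all 20922 probes tested. Over all members, with no filter, the median difference in Cy3 was 0.010.

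Limma called 1 of the 32 between the days in the ratio, Igkv14-111 A_51_P390937, where 0.00867% of all probes tested were called higher. It called 0 in Cy5 and 0 in Cy3, with 19 of 32 and 9 of 10 at an unadjusted p under 0.05. Over all probes it also called 0 of 23067 in Cy5 and 0 of 20922 in Cy3. Of these, 637 and 275 had an unadjusted p under 0.05. Because the group was chosen for its difference between the days, these counts carry no weight as a test. The Igkv14-111 call was lost without tumor 302, 312 or 303, while without tumor 318 the count was 3, with Igj A_51_P150705 and Igkv2-116 added.

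The 3 members just inside the requirement of 3 arrays above background, Igh-VJ558 A_52_P151887, Igk-V38 and Igkv4-91, had ratio differences of 0.77 to 1.69 between the days. The 9 just outside it, on 2 arrays each, had differences of -0.11 to 1.15.

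**Figure D3:**
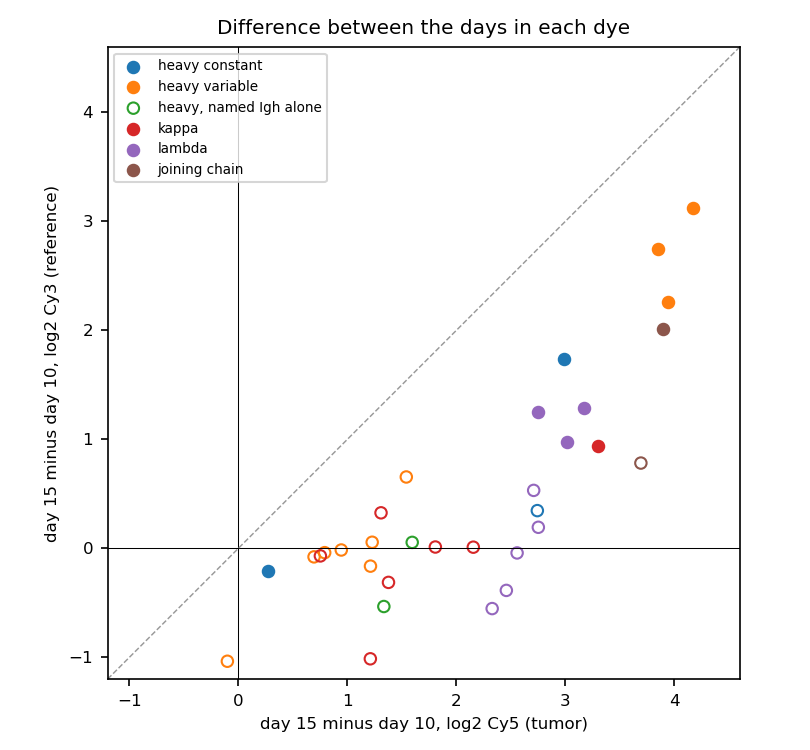
Mean of day 15 minus mean of day 10 in log2 Cy5 (x axis) and log2 Cy3 (y axis) for the 32 probes, coloured by group, filled where the probe was above background in Cy3 on at least 3 arrays and open where it was not. The dashed line marks equal differences in both dyes. All points lie below the line, and 9 of the 10 filled points lie above 0 on both axes.

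On each array, 7 to 24 of the 57 members were above background in both dyes. Most of these had a Cy3 signal that was a small share of their Cy5 signal. Among the probes above background in both dyes, the background-subtracted Cy3 intensity was a median of 4.7% to 18.2% of the Cy5 intensity per array, whereas over all such probes on an array the median was 126% to 186%. Single members ranged from 2.2% to 190% on the array of tumor 313. Igh-6 A_51_P485421 had a Cy3 signal of 4.5%, 5.0% and 6.7% of its Cy5 signal at day 10 and 4.2%, 4.2% and 3.4% at day 15. Igh-VJ558 A_51_P509679 had 6.8%, 7.2% and 11.5% at day 10 and 7.2%, 6.5% and 6.0% at day 15, although its Cy5 level ranged over more than 7 units. Igh-VJ558 A_51_P180159 varied more, from 11.0% in tumor 318 to 26.6% in tumor 312. What produced the Cy3 signal was not tested.

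For 7 of the 31 probes called higher than the reference, no array had a Cy3 signal above background, and the size is only a bound. Igl-V1 A_52_P672903 was at least 4.6-fold higher, Igh-VJ558 A_51_P272341 at least 4.2-fold and A_52_P213483 at least 2.8-fold. Ighv1-72 was at least 2.3-fold higher, Igkv4-91 at least 2.0-fold, Igk-V38 at least 1.5-fold and Igh-VJ558 A_52_P151887 at least 1.4-fold. The bounds take, per array, the lowest Cy3 signal of any probe above background, and dye bias remains in them without a dye swap.

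Genes of the cells that make antibodies were read beside the members, with each gene represented by its brightest probe. In the list of plasma cell and antibody secretion genes, 13 of 18 tested were called higher than the reference and 0 lower. Over all probes tested, 22.1% were called higher. Between the days 13 of 18 had a higher ratio at day 15, and the median difference was 0.20. No overlap was seen in 6 of 18, against 4.91% of all probes tested. Limma called 0 of the list, with 4 at an unadjusted p under 0.05. Of all 23067 probes tested in the ratio, 10 were called and 817 had an unadjusted p under 0.05. The counts of the lists below are to be read beside these. Without tumor 312, Ell2 and Cd38 turned to -0.051 and -0.40, Xbp1 fell from 0.55 to 0.043 and Irf4 from 0.75 to 0.22. Pou2af1, a coactivator of immunoglobulin transcription, had ratios of 2.63, 2.81 and 3.14 in the day 10 tumors and 5.23, 5.29 and 3.74 in the day 15 tumors. Mzb1, a chaperone of immunoglobulin assembly, had 1.65, 1.76 and 1.54 at day 10 and 3.55, 4.27 and 2.71 at day 15.

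Both genes had values of day 15 above all of day 10, with tumor 318 the lowest of day 15, as for most members. Tnfrsf17, which encodes the plasma cell receptor BCMA, had 1.53, 2.26 and 2.04 at day 10 and 4.04, 3.83 and 1.97 at day 15, and overlapped. Prdm1, the plasma cell regulator Blimp-1, and Sdc1, the surface proteoglycan CD138, went the other way, with day 15 minus day 10 at -0.64 and -0.82. Prdm1 and Sdc1 were named after their values were seen.

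In the B cell list, 12 of 16 genes tested were called higher than the reference, against 22.1% of all probes tested. Only Pax5, the B cell identity factor, was called lower, at -2.04. Between the days 15 of 16 genes had a higher ratio at day 15, with a median of 0.55. No overlap was seen in 3 of 16, against 4.91% of all probes tested. Limma called 0, with 2 at an unadjusted p under 0.05. Cd22, an inhibitory receptor of B cells, had the largest difference, 1.22, with tumor 312 at -0.15 against 2.54 and 2.41 in the other day 10 tumors, and it was 0.34 without tumor 312. Ms4a1, which encodes CD20, had 0.12, 0.02 and 0.37 at day 10 and 0.96, 1.46 and 0.99 at day 15. Blk, Cr2 and Fcer2a were not above background in Cy5 on any array, and Cd79a on 1.

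The recombinase genes Rag1 and Rag2 were above background on no array. Receptors and transporters of antibodies were high in every tumor: 8 of 8 tested were called higher than the reference, against 22.1% of all probes tested. Fcgr2b, the inhibitory IgG receptor, lay between 5.76 and 6.61, and 7 of 8 had a higher ratio at day 15. The median difference over the list was 0.23 in the ratio but -0.31 in Cy5 and -0.52 in Cy3. In the ratio limma called 0, with 1 at an unadjusted p under 0.05. Cd5l, a macrophage protein that binds IgM, had the largest difference, 0.86. Pigr, the epithelial carrier of polymeric antibodies, and Fcamr were not above background on any array.

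**Figure D4:**
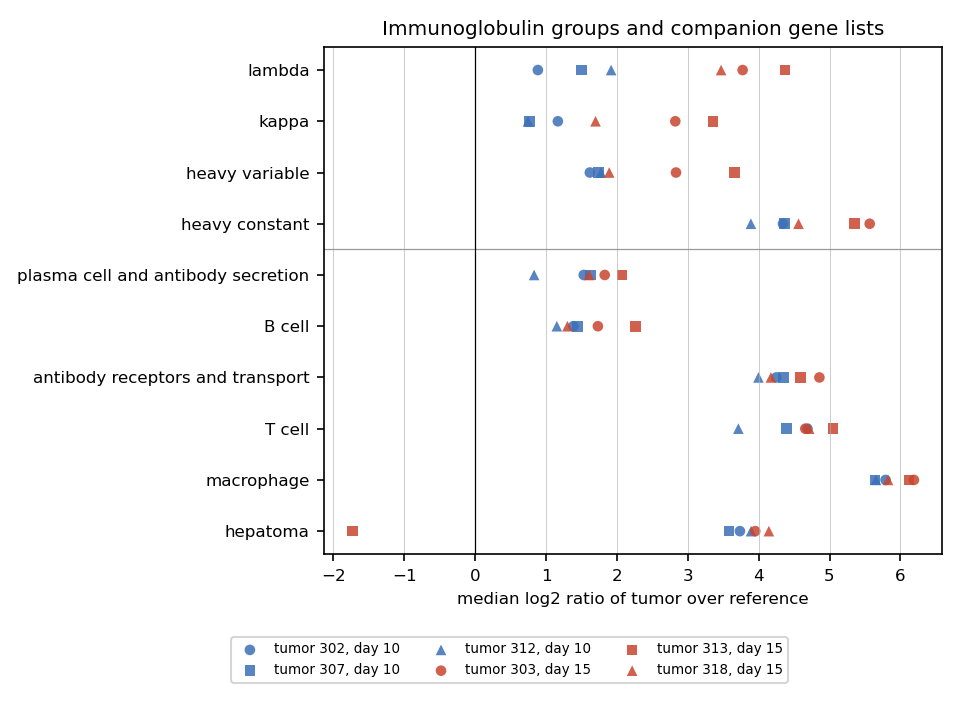
Median log2 ratio of tumor over reference on the x axis, 1 point per tumor, for the tested probes of 4 immunoglobulin groups (above the grey line) and for the tested genes of 6 companion lists (below it), day 10 in blue and day 15 in red. Lambda and kappa show the widest separation of the days, the macrophage list lies between 5.64 and 6.19 in all tumors, and tumor 313 is alone at -1.73 for the hepatoma list.

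Markers of other cells moved in part with the members. All 6 T cell genes tested and all 7 macrophage genes had a higher ratio at day 15, and 2 and 1 of them had no overlap. The medians were 0.55 and 0.16 in the ratio and 0.40 and -0.049 in Cy5. Limma called 0 of either list, with 2 and 0 at an unadjusted p under 0.05. Without tumor 312 the T cell genes stayed higher, with Cd3d falling from 1.87 to 0.38. Among the macrophage genes, Csf1r, Ctss, Lyz2 and C1qa then stayed higher, and Adgre1, Cd68 and Mrc1 turned to -0.18, -0.040 and -0.16. All 4 red cell genes tested were higher at day 15 without overlap, by a median of 0.55, with 0 called and 2 at an unadjusted p under 0.05. Over all probes tested, 4.91% were higher at day 15 without overlap. Of the 4 neutrophil genes tested, 3 had a higher ratio at day 15 and 0 had no overlap, and the median difference was 0.22. Tumor 313, in which most immunoglobulin ratios were highest, was low in several hepatoma genes: Afp was -4.75 there and 2.22 to 3.25 in the other tumors, and Alb, the albumin gene, -2.48 there and 2.26 to 3.06. Gpc3, a glypican of the same list, was 5.13 there and 4.73 to 5.48 in the others. The part of these cells and of tumor 313 in the members' values was not tested. Without tumor 313 the median difference of the members between the days was 1.18 in the ratio and 1.60 in Cy5.

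The median ratio of the hepatoma genes was 3.58 to 4.14 in 5 of 6 tumors and -1.73 in tumor 313. In the reference, labelled as blood, 11 of 20 B cell genes and 3 of 18 plasma cell genes were not above background on any array. Of the 6 hepatoma genes, 5 were above background in the reference dye on all 6 arrays, while 4 were called higher in the tumors and 0 lower. The red cell gene Hba-a1 was higher in every tumor than in the reference, by 3.56 to 3.94. What RNA the reference held was not tested. Members were therefore compared with the reference RNA as it was hybridised.

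The arrays held 45018 spots each. Ratios of any pair of arrays correlated at 0.852 to 0.985 across probes, which are not independent replicates. On the array of tumor 312 an area with 14.5% of the spots had lost signal. It held spots of 9 of the 57 members, among those tested 1 of the 10 spots of Igh-6 A_51_P485421 and the spot of Igk-V38. Leaving this area out brought the count of members called between the days in Cy5 from 0 to 1, Igkv14-111 with a difference of 3.46.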

How the data were processed

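Agilent Feature Extraction 9.1.3.1 produced the scanner files, per the submitters' processing notes and the file headers. Per the file headers, it holds for each spot and dye a mean intensity and a local background intensity, neither normalised, marks for signal above background, saturation and outliers, and a processed intensity and log10 ratio that the software had background-corrected and dye-normalised. The authors' deposited value table, also in log10, differed from the scanner's ratio by 0 at every spot and has column medians of 0. Its values turned into log2 served as an alternative. The marks and gene names of the deposited files are neither counts nor levels (unit other) and were used as given.

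Mean intensities were background-corrected (normexp, offset 50) and log2 ratios loess-normalised within arrays with limma 3.58.1 (R 4.3.3). Control and outlier spots had weight 0 and were dropped afterwards, and the remaining spots of each probe were averaged. Levels of a dye followed Aquantile scaling. Tests were limma's moderated fits (eBayes, 2-sided), adjusted by Benjamini-Hochberg over all probes tested: 23067 between the days (above background in Cy5 on at least 3 arrays), 20922 in Cy3 and 24221 against the reference (above background in either dye). The fits were tested on simulated data. Of 66 member spots, 0 were saturated and 2 had outlier marks. Member names matched a current RefSeq symbol for 24 probes and an older symbol for 17, and 16 kept the array's name. With so few arrays, their number limits the precision.

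The members, companion lists, tests and rule for named probes were chosen with earlier results of these data known. The rule took, per group, up to 4 probes of highest mean Cy5 level, in larger groups also the 3 of largest and 2 of smallest difference between the days, every probe called between the days, and all probes of Igj and Igll1. From each companion list it took up to 3 genes of largest difference. Other names were chosen after their values were seen. Alternatives were no background correction, median centring, the scanner's processed signals, the deposited value table, other filters, quantile scaling of a dye, leaving out the lost area and leaving out each tumor.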

Additional observations from a re-analysis of the deposited data

Results flagged for a closer look

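The log2 ratio of Igkv14-111 A_51_P390937, the probe described as the kappa constant region, was 2.35 higher at day 15 than at day 10. It is listed because its effect against the reference differed between the days in limma's fit over all probes. It was 0.51 with the deposited value table.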

How the results depend on the processing

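No paired analysis was possible because the tumors of day 10 and day 15 share no replicate number. Against the reference, all probes named by the rule stayed higher under the alternatives run, but Igk-V38, Igh-VJ558 A_52_P151887 and Igk-V8-16 fell under a log2 ratio of 1 in 8 of 356 recomputed values, the first to 0.85 and the second to 0.68 with no background correction. The count of members called ranged from 28 to 32 when a tumor was left out. Between the days, the count of 1 member called in the ratio was 0 with the deposited value table, 0 with median centring and 0 with the processed signals, and 0 to 3 when a tumor was left out. In Cy5 the count of 0 became 1 without the lost area. The median difference between the days fell with no filter on dim probes, which admits all 57 members, from 1.68 to 0.96 in the ratio, from 2.24 to 1.19 in Cy5 and from 1.51 to 0.010 in Cy3. In Cy3 it was 2.24 over members above background on all 6 arrays and 2.82 with the processed signals. All 32 members had a higher mean ratio at day 15 under each scaling, the smallest difference being 0.047 with the deposited value table. Their median difference fell from 1.68 to 1.13 after median centring and to 1.15 with the deposited value table or the processed signals. Over all probes the median moved from 0.016 to -0.30 after median centring. Counts without overlap ranged from 22 to 31 in the ratio and from 20 to 29 in Cy5 when a tumor was left out. With the filter kept fixed, leaving out a tumor can only keep or raise such a count, so this range does not measure stability. The Cy5 difference of Igh-6 A_52_P358360 turned to -0.35 without tumor 303. The cause of these shifts was not tested. Signal over background limits the ratios most in the reference dye, where 28 of 57 members were above background on no array.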
